A study of Zea mays with 18 samples.

Results

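The floral organ identity genes si1 (Zm00001d036425), sts1, also called zmm16 (Zm00001d042618), and zag1 (Zm00001d037737) of maize, all of the MADS-box family, were followed across anther development in transgenic and control plants. They were chosen by identifier and are 3 of the 45578 genes listed in the deposited tables. All 3 passed the filter on low counts, among 24694 genes tested. By the coordinates of those tables, whose genome build the sources used here do not name, si1 lies on the plus strand of chromosome 6 from 87897599 to 87902270, zag1 on the plus strand of chromosome 6 from 135893605 to 135901920, and sts1 on the plus strand of chromosome 3 from 174084397 to 174087054. The pairing of these identifiers with gene names came with the choice of genes, since the deposited tables hold no gene names. A RefSeq gene table of assembly Zm-B73-REFERENCE-NAM-5.0 lists si1, sts1 and ZAG1 on chromosomes 6, 3 and 6 with lengths of 4446, 2388 and 8300 bp, against spans of 4672, 2658 and 8316 bp for the identifiers used here.

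MADS-box transcription factors specify the organs of a flower in combination, and stamens, whose upper part is the anther, form where B-class and C-class factors act together. B-class proteins of the APETALA3 and PISTILLATA types bind DNA as a heterodimer. si1 (silky1) encodes the APETALA3-type protein of maize and sts1 (sterile tassel silky ear1) a PISTILLATA-type partner, and in mutants of either gene stamens are replaced by carpel-like organs. zag1 encodes an AGAMOUS-type, C-class protein whose mutants lose floral determinacy mainly in the ear. Maize has further PISTILLATA-type genes and a close zag1 relative, zmm2, so reads shared with such copies could shift the counts.

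The study compared maize plants carrying an active ZmCCT10 transgene, ZmCCT(+), with non-transgenic controls, ZmCCT(-). ZmCCT10 encodes a CCT-domain protein that holds back flowering in long days. Anthers were sampled in 3 developmental windows, labelled S3-4, S5-6 and S7, with 3 RNA-seq libraries for each genotype and stage, 18 in all. The sources used here do not name the promoter driving the transgene, the number of transformation events or the plants behind each library. Spread between the 3 libraries of a group may therefore be technical, and p-values measure no more than that spread.

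Total counts ran from 14846974 to 23652182 per library. The S3-4 ZmCCT(+) libraries stood apart from the other 15, with scaling factors (TMM) of 0.845 to 0.854 against 0.961 to 1.08, and every result on that group rests on these 3 libraries. The anther label was checked with the precursors of miR2118 and miR2275, microRNAs that trigger phased small RNAs in grass anthers. The 7 miR2118 precursors together had 17 to 60 counts in every library, and 2 of the 7 had none in each group. The 4 miR2275 precursors together had 356 to 500 counts per library in S5-6 ZmCCT(-), 399 to 489 in S7 ZmCCT(-), 65 to 93 in S5-6 ZmCCT(+), 18 to 39 in S7 ZmCCT(+) and 10 to 16 in S3-4 ZmCCT(-). In S3-4 ZmCCT(+) they had 0 counts, which allows up to 0.0642 CPM at a floor of 3 counts over the group. Of the 11 precursors, 4 passed the filter on low counts. Counts this low cannot establish the anther label in any group. S3-4 ZmCCT(+) lacked miR2275 precursor counts but had 38 to 60 miR2118 precursor counts per library. The part of these precursors in the results below was not tested.

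Control anthers held si1 and sts1 at nearly constant levels and zag1 at a lower one. TPM is a transcript abundance scaled to transcript length and to the library, and was used wherever levels of different genes are compared. In TPM, si1 had 537, 518 and 512 in the S3-4 ZmCCT(-) libraries, 573, 588 and 546 at S5-6 and 540, 534 and 543 at S7. sts1 had 233, 242 and 240 TPM at S3-4, 233, 244 and 241 at S5-6 and 216, 225 and 216 at S7. The TPM values of zag1 were 24.2, 25.3 and 23.6 at S3-4, 15.6, 16.8 and 16.6 at S5-6 and 14.5, 17.3 and 14.1 at S7. In every control library the order was therefore si1, sts1, zag1.

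In transgenic anthers the order of the 3 genes stayed the same, but the distances between them changed. si1 had 870, 893 and 874 TPM in the S3-4 ZmCCT(+) libraries, 526, 526 and 529 at S5-6 and 789.9, 790.3 and 787 at S7. sts1 had 55.0, 57.0 and 54.5 TPM at S3-4, 211, 208 and 199.6 at S5-6 and 195, 190.4 and 204 at S7. zag1 had 11.5, 10.05 and 11.4 TPM at S3-4, 12.6, 11.3 and 12.6 at S5-6 and 17.3, 17.5 and 12.5 at S7. Among all listed genes ranked by TPM, si1 stood at places 174 to 192 in the S3-4 controls and 78 to 82 in S3-4 ZmCCT(+), while sts1 went from places 576 to 607 down to 3956 to 4267.

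**Figure D1:**
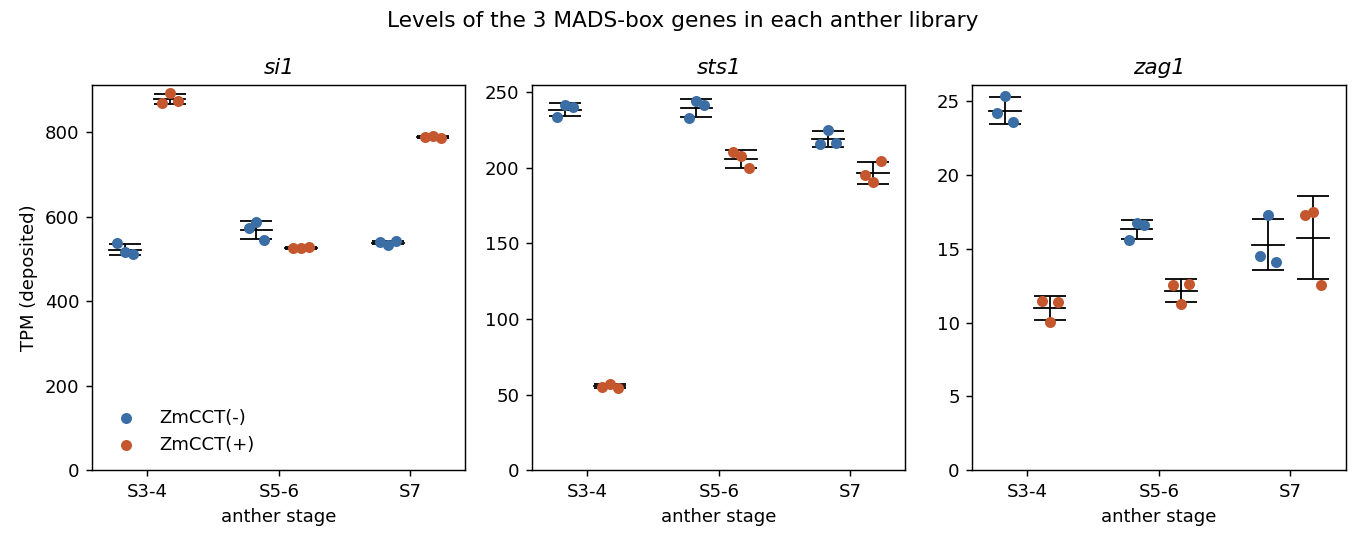
TPM of si1, sts1 and zag1 (vertical axes, each from 0) by anther stage; each point is 1 library, blue for ZmCCT(-) and orange for ZmCCT(+), with the mean and SD of 3 libraries in black. The S3-4 ZmCCT(+) libraries lie above all others for si1, at 870 to 893 TPM, and below all others for sts1, at 54.5 to 57.0 TPM.

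At S3-4 the APETALA3-type and PISTILLATA-type partners moved in opposite directions between genotypes. In CPM, counts scaled to library size with TMM factors, si1 was at 745 ± 28.1 in ZmCCT(+) and 410 ± 9.64 in ZmCCT(-) (SD, n = 3), 1.82-fold higher (log2 0.86 ± 0.025 SE, edgeR quasi-likelihood adjusted p = 8.33e-43). sts1 was at 38.1 ± 0.847 CPM against 152 ± 3.11 (SD, n = 3), 3.99-fold lower (log2 -2.00 ± 0.040 SE, edgeR adjusted p = 3.23e-60). The C-class gene zag1 was also lower, at 11.3 ± 0.859 against 22.4 ± 1.28 CPM (SD, n = 3), by 1.98-fold (log2 -0.99 ± 0.096 SE, edgeR adjusted p = 6.83e-16). For each of the 3 genes the transgenic and control libraries did not overlap. The share of all tested genes without such overlap was not counted, so this sets the 3 genes apart from no others.

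These calls stand in a stage where 81.3% of tested genes were called, 40.4% higher and 40.9% lower in ZmCCT(+), so that 3 of 3 genes called is close to the background. By size, 82.3% of tested genes changed less than sts1, 58.5% less than zag1 and 54.0% less than si1, and the median absolute log2 fold change over all tested genes was 0.77. By this measure the fall of sts1 was large for the stage, whereas the changes of si1 and zag1 were near the median of all genes. The spread between replicates common to all tested genes was estimated at 3.20%, and the main test let it vary by gene. All 3 calls also passed in edgeR's likelihood ratio test with an assumed spread of 20%. Adjusted p-values there were 0.000713 for si1, 5.49e-15 for sts1 and 0.000186 for zag1, each the highest over all alternatives run for its gene. In that setting 58.6% of all tested genes were called.

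**Figure D2:**
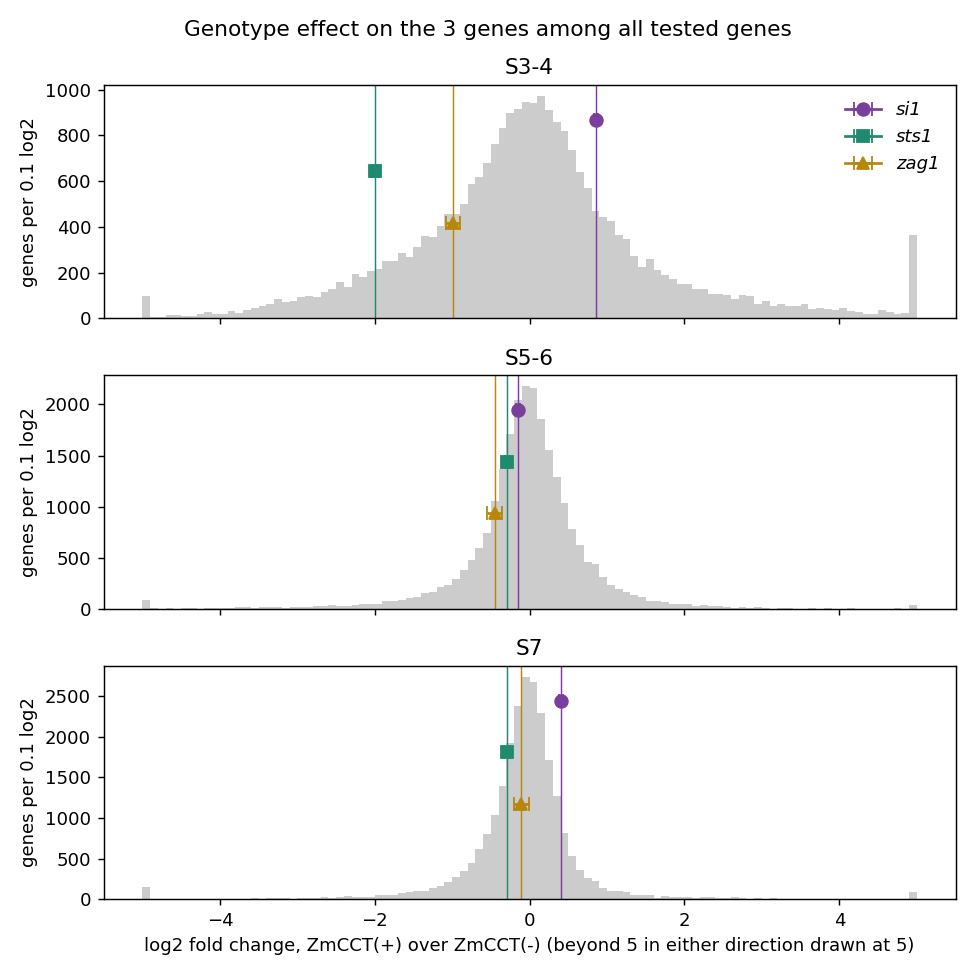
Genotype effect (log2 fold change, ZmCCT(+) over ZmCCT(-)) at each stage; grey bars count all 24694 tested genes per 0.1 log2, and coloured markers with vertical lines show si1, sts1 and zag1 with their SE. At S3-4 sts1 lies at -2.00 and si1 at 0.86, on opposite sides of the distribution; at S5-6 all 3 genes lie below 0.

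S5-6 anthers showed smaller differences, with all 3 genes lower in ZmCCT(+). si1 was at 369.7 ± 0.574 CPM against 411 ± 20.4 (SD, n = 3), 1.11-fold lower (log2 -0.15 ± 0.025 SE, edgeR adjusted p = 2.28e-07). sts1 was at 115 ± 3.20 against 141 ± 2.99 CPM (SD, n = 3), 1.22-fold lower (log2 -0.29 ± 0.034 SE, edgeR adjusted p = 4.62e-12). zag1 was at 10.1 ± 0.644 against 13.9 ± 0.500 CPM (SD, n = 3), 1.37-fold lower (log2 -0.45 ± 0.098 SE, edgeR adjusted p = 3.58e-05). The libraries of the genotypes did not overlap for any of the 3 genes, a trait again not counted over all tested genes.

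At S5-6, 63.1% of all tested genes were called, 29.8% higher and 33.4% lower, and 62.2% changed less than zag1, 44.8% less than sts1 and 26.3% less than si1. With the assumed spread of 20% the share of all tested genes called was 22.2%, and none of the 3 was among them, at adjusted p-values of 0.721 for si1, 0.444 for sts1 and 0.199 for zag1 (edgeR likelihood ratio test); over all alternatives the adjusted p ran from 1.74e-10 to 0.721, from 2.32e-16 to 0.444 and from 4.48e-06 to 0.199. The SD of si1 in S5-6 ZmCCT(+), 0.574 CPM, was below the counting error of 4.17 CPM per library. The same held for sts1 in S3-4 ZmCCT(+) (0.847 against 1.57) and for si1 in S7 ZmCCT(+) (3.70 against 5.51) and S7 ZmCCT(-) (4.32 against 4.73). It also held for zag1 in S5-6 ZmCCT(-) (0.500 against 0.843) and S5-6 ZmCCT(+) (0.644 against 0.692). In the remaining groups the SD of each gene was above its counting error.

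By S7 the B-class partners had separated again. si1 was at 549 ± 3.70 CPM in ZmCCT(+) and 415 ± 4.32 in ZmCCT(-) (SD, n = 3), 1.32-fold higher (log2 0.40 ± 0.025 SE, edgeR adjusted p = 5.98e-23). sts1 was at 111 ± 3.58 against 136 ± 3.04 CPM (SD, n = 3), 1.22-fold lower (log2 -0.29 ± 0.034 SE, edgeR adjusted p = 7.74e-12), and by limma-trend on log2(TPM + 1) its log2 value was -0.16. The libraries of the genotypes did not overlap for either gene, again without a count over all tested genes. zag1 had 14.0, 14.0 and 10.4 CPM in ZmCCT(+) and 12.6, 15.7 and 12.7 in ZmCCT(-), which overlap, and its difference did not pass (log2 -0.11 ± 0.097 SE, edgeR adjusted p = 0.356). Its direction turned by limma-trend on log2(TPM + 1) and log2(TPM + 0.1), to log2 0.032 and 0.034, without S7 ZmCCT(-) replicate 2 (0.014) and without S7 ZmCCT(+) replicate 3 (0.027).

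Of all tested genes 54.5% were called at S7, 24.1% higher and 30.4% lower, or 64.4% of calls higher by limma-trend on log2(TPM + 1) against 44.3% here. Smaller changes than that of si1 were seen in 66.6% of tested genes and smaller than that of sts1 in 54.7%. With the assumed spread of 20%, under which 13.3% of all tested genes were called, neither gene was, at adjusted p-values of 0.318 and 0.539, and over all alternatives these ran from 6.88e-61 to 0.318 for si1 and from 1.07e-14 to 0.539 for sts1.

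The ratio of si1 to sts1 within a library does not depend on how libraries are scaled. It restates the changes of both genes given above and is no separate result. It was 2.30, 2.14 and 2.13 TPM of si1 per TPM of sts1 in the S3-4 controls, 2.46, 2.41 and 2.26 at S5-6 and 2.50, 2.37 and 2.51 at S7. In ZmCCT(+) it was 15.8, 15.7 and 16.04 at S3-4, 2.50, 2.53 and 2.65 at S5-6 and 4.05, 4.15 and 3.85 at S7. All 9 control libraries thus lay between 2.13 and 2.51, and the S3-4 and S7 transgenic libraries lay above them.

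Between genotypes the log2 ratio of si1 to sts1 differed by 2.86 at S3-4 (7.24-fold), by 0.11 at S5-6 (1.08-fold) and by 0.71 at S7 (1.63-fold), with SDs of 0.017 to 0.063 within groups (n = 3), and the genotypes did not overlap at any stage. The S5-6 gap was narrow, with a highest control of 2.46 and a lowest transgenic library of 2.50. The log2 ratio of si1 to zag1 was higher in ZmCCT(+) by 1.90, 0.31 and 0.52 at the 3 stages, again without overlap. For sts1 to zag1 the difference was -0.95 at S3-4, 0.21 at S5-6 and -0.19 at S7, and the genotypes overlapped at S7. These ratios are descriptions without a test, because the genes were chosen with earlier results known. Ratios of other gene pairs, and how often their genotypes overlap, were not computed. At S3-4, 40.4% of tested genes were called higher and 40.9% lower, so opposite changes are not particular to this pair.

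**Figure D3:**
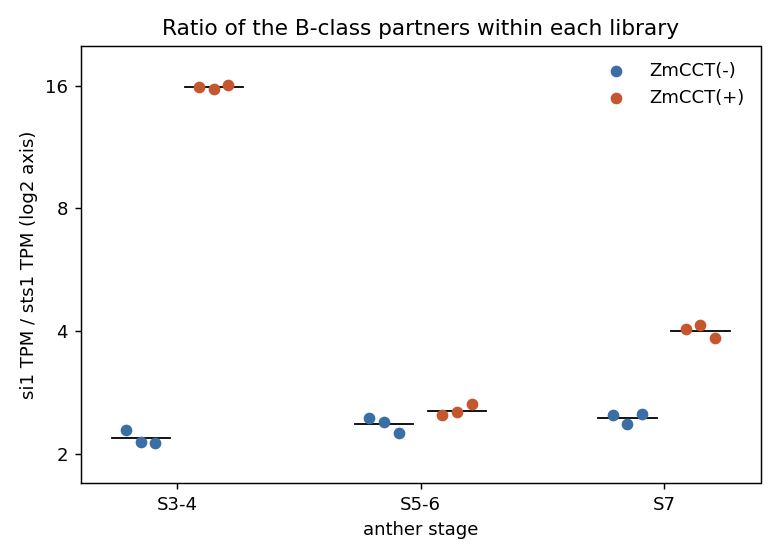
Ratio of si1 TPM to sts1 TPM (log2 axis) by anther stage; each point is 1 library, blue for ZmCCT(-) and orange for ZmCCT(+), and black lines are means of 3 libraries. Control libraries lie between 2.13 and 2.51 at every stage, and S3-4 ZmCCT(+) lies between 15.7 and 16.04.

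The deposited coverage, a mean depth over the bases of each gene, was set against the counts to see whether the deposited values match each other. Coverage per count was 0.170 to 0.175 for si1 over the 18 libraries, 0.252 to 0.260 for sts1 and 0.168 to 0.186 for zag1. The ratio hence varied little for any gene, S3-4 ZmCCT(+) included. Both measures summarise the reads of the same libraries, so a steady ratio is no independent support for the levels. RNA came from whole anthers, so fewer cells expressing a gene and less of its RNA per cell cannot be told apart.

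Over control development zag1 changed more than the B-class genes. From S3-4 to S5-6 zag1 fell 1.62-fold (log2 -0.70 ± 0.089 SE, edgeR adjusted p = 1.39e-10), a larger change than in 80.0% of tested genes, from 22.4 ± 1.28 to 13.9 ± 0.500 CPM (SD, n = 3). sts1 fell 1.08-fold in that step (log2 -0.11 ± 0.033 SE, edgeR adjusted p = 0.00264), but by limma-trend on log2(TPM + 1) its value was 0.0072 and not called (adjusted p = 0.869, the highest over all alternatives, which began at 0.00114). The stricter filter (log2 -0.071, adjusted p = 0.0578) and the assumed spread (log2 -0.11, adjusted p = 0.862, with 16.3% of all tested genes called) also ended this call. si1 had a log2 fold change of 0.0067 ± 0.026 SE (edgeR adjusted p = 0.847), and 0.12 by limma-trend on log2(TPM + 1), where it was called and the all-gene median shifted by 0.098. Of all tested genes 56.3% were called in this step and 28.4% fell; the share of calls that rose was 49.6%, and 67.7% by limma-trend on log2(TPM + 1).

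From S5-6 to S7 none of the 3 genes was called in the controls, where 42.4% of tested genes were. The log2 fold changes were 0.013 ± 0.026 SE for si1, -0.053 ± 0.034 for sts1 and -0.0078 ± 0.095 for zag1 (edgeR adjusted p = 0.721, 0.201 and 0.960; unadjusted p = 0.613, 0.114 and 0.935). By limma-trend on log2(TPM + 1), si1 (log2 -0.077, adjusted p = 0.0165) and sts1 (log2 -0.13, adjusted p = 0.00353) passed as lower at S7, where the all-gene median shifted by -0.082. Over all alternatives the adjusted p ran from 0.0165 to 1 for si1 and from 0.00353 to 0.981 for sts1.

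In the first step of transgenic anthers the B-class partners changed in opposite directions. From S3-4 to S5-6 si1 fell 2.01-fold (log2 -1.01 ± 0.025 SE, edgeR adjusted p = 2.47e-47) and sts1 rose 3.03-fold (log2 1.60 ± 0.041 SE, edgeR adjusted p = 5.95e-53). The value of zag1 was -0.16 ± 0.11 SE on the log2 scale, not called by edgeR (adjusted p = 0.148), and 0.14 by limma-trend on log2(TPM + 1). In this step 85.9% of tested genes were called, 10397 genes higher and 10805 lower at S5-6. Smaller changes than that of sts1 were seen in 67.3% of tested genes, and smaller than that of si1 in 50.8%.

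From S5-6 to S7 si1 rose again in ZmCCT(+), by 1.48-fold (log2 0.57 ± 0.025 SE, edgeR adjusted p = 2.00e-31), and zag1 rose 1.26-fold (log2 0.34 ± 0.10 SE, edgeR adjusted p = 0.00237). sts1 had a log2 fold change of -0.060 ± 0.035 SE (edgeR adjusted p = 0.123). Of all tested genes 63.6% were called in this step. With the assumed spread of 20%, under which 24.1% of all tested genes were called, the calls of si1 (adjusted p = 0.0621) and zag1 (0.371) were lost; over all alternatives the adjusted p ran from 2.18e-120 to 0.0621 for si1 and from 7.37e-05 to 0.371 for zag1.

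**Figure D4:**
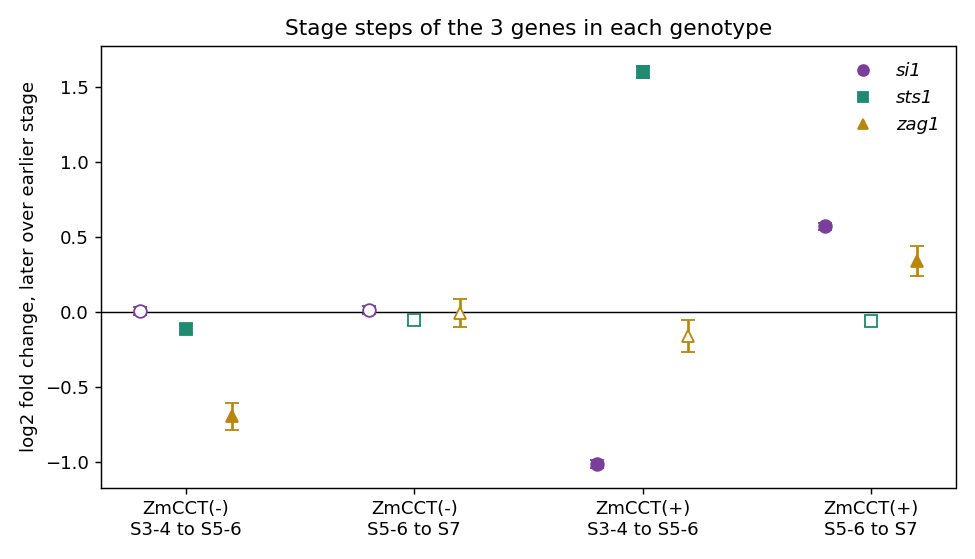
Log2 fold change of si1, sts1 and zag1 from the earlier to the later stage in each genotype, with SE; filled markers are called by the edgeR quasi-likelihood fit (adjusted p under 0.05) and open ones are not. In ZmCCT(+) the first step shows sts1 at 1.60 and si1 at -1.01, while in ZmCCT(-) the same step shows -0.11 and 0.0067.

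The genotype effect itself differed between stages for all 3 genes in the test of the interaction (edgeR adjusted p = 6.22e-37 for si1, 6.95e-49 for sts1 and 8.71e-08 for zag1), as it did for 86.6% of tested genes. Between S3-4 and S5-6 the effect changed by -1.02 ± 0.036 SE on the log2 scale for si1, by 1.71 ± 0.053 for sts1 and by 0.54 ± 0.14 for zag1 (edgeR adjusted p = 8.82e-38, 2.62e-46 and 0.000342). Of all tested genes 76.9% were called for that difference. With the assumed spread, the interaction of zag1 (adjusted p = 0.0646) and its change between S3-4 and S5-6 (0.195) were not called, where 55.3% and 49.9% of all tested genes were; over all alternatives these ran from 1.77e-10 to 0.0646 and from 0.000109 to 0.195.

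Between S5-6 and S7 the effect changed by 0.56 ± 0.036 SE for si1 (edgeR adjusted p = 1.47e-22) and by 0.34 ± 0.14 for zag1 (edgeR adjusted p = 0.0258), while 60.5% of tested genes were called. For sts1 the change was -0.0066 ± 0.048 (edgeR adjusted p = 0.920), or 0.062 by limma-trend on log2(TPM + 1), so no difference between the 1.22-fold lower levels of sts1 at S5-6 and at S7 was detectable. The zag1 call was lost without S7 ZmCCT(-) replicate 1 (adjusted p = 0.0677) or 3 (0.0709), S5-6 ZmCCT(+) replicate 2 (0.0784) or S7 ZmCCT(+) replicate 1 (0.0805) or 2 (0.108), all from edgeR. With the assumed spread si1 (0.274) and zag1 (0.562) were not called, where 17.3% of all tested genes were; over all alternatives the adjusted p ran from 1.77e-59 to 0.274 for si1 and from 0.00192 to 0.562 for zag1.

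Ordered by mean CPM, si1 was highest in S3-4 ZmCCT(+), then in S7 ZmCCT(+), then in the 3 control groups, whose libraries overlapped from each group to the next, and lowest in S5-6 ZmCCT(+). The order of sts1 ran from S3-4 ZmCCT(-) through S5-6 and S7 ZmCCT(-), which overlapped each other, to S5-6 and S7 ZmCCT(+), which also overlapped each other, and ended with S3-4 ZmCCT(+) far below. zag1 was highest in S3-4 ZmCCT(-), apart from the rest, and every later group in its order overlapped the next. Its counts per library ran from 156 to 405, against 570 to 3150 for sts1 and 6488 to 12321 for si1. The SD of zag1 was 1.28 CPM against a counting error of 1.13 CPM in S3-4 ZmCCT(-), but 1.73 against 0.853 in S7 ZmCCT(-) and 2.09 against 0.841 in S7 ZmCCT(+).

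The 3 genes did not share 1 pattern. Across the 18 libraries log2 CPM of si1 and sts1 had a Pearson r of -0.88, si1 and zag1 of -0.26, and sts1 and zag1 of 0.47. Over the 15 libraries outside S3-4 ZmCCT(+) these were -0.41, 0.012 and 0.76. The libraries fall into 6 groups and share their scaling, so these values are descriptions only.

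Genes closest to each member were taken as the 3 with the highest r of log2 CPM among 22091 others with a mean of at least 1 CPM, and the deposited tables give them no name. For si1 they were Zm00001d046234 (r = 0.990, 27.8 to 520 CPM), Zm00001d028303 (0.987, 22.1 to 576 CPM) and Zm00001d028331 (0.986, 1.12 to 60.1 CPM). For sts1 they were Zm00001d037984 (0.996, 18.7 to 46.6 CPM), Zm00001d029256 (0.995, 5.66 to 36.4 CPM) and Zm00001d034840 (0.995, 9.46 to 46.4 CPM). zag1 was matched less closely, by Zm00001d003743 (0.940, 4.199 to 16.6 CPM), Zm00001d032991 (0.935, 33.5 to 58.4 CPM) and Zm00001d015780 (0.932, 78.6 to 123.2 CPM). An r of at least 0.9 was reached by 1217 genes for si1, 2645 for sts1 and 31 for zag1.

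Over the 15 libraries outside S3-4 ZmCCT(+), Zm00001d046234 again led for si1 (r = 0.979), followed by Zm00001d008980 (0.976) and Zm00001d043954 (0.974). For sts1 they were Zm00001d024248 (0.985), Zm00001d049244 (0.983) and Zm00001d017706 (0.982), and for zag1 Zm00001d034597 (0.966), Zm00001d037724 (0.964) and Zm00001d003200 (0.963). Zm00001d037724 lies on chromosome 6 from 135240118 to 135243717, 650 kb before zag1, but other genes near the members were not examined. An r of at least 0.9 over these libraries was reached by 159 genes for si1, 330 for sts1 and 502 for zag1.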

How the data were processed

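Strand counting and genome build are not stated in the sources used here. Bowtie2, StringTie and DESeq2 were used by the authors, per the submitters' processing notes, with no version given. Raw counts come from 3 deposited tables, 1 for each stage. TPM, scaled by the authors within each library, and coverage, a signal of mean depth over a gene, come from 18 deposited tables, 1 for each library, per the file headers. Columns of the count tables were assigned by stage, genotype and number, and within each group 18 of 18 columns matched the TPM of their own library best.

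Tests used the counts. The filter filterByExpr (minimum count 10, minimum total 15) kept 24694 genes and left out 20884. The quasi-likelihood F test of edgeR 4.0.16 (robust, TMM scaling, R 4.3.3) was fitted once to the 18 libraries in 6 groups (residual degrees of freedom 12) for 10 comparisons, with Benjamini-Hochberg adjustment over all genes tested and a threshold of 0.05. SE was taken as the size of a log2 fold change divided by the root of its F. The floor of 3 counts covers counting error alone. Each of the 18 replicate pairs differed by more than counting noise (chi-square over degrees of freedom 1.57 to 3.03).

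The genes, lists and tests were chosen with earlier results of these data known. Genes named beside the members follow the likeness rule given with them (prior count 2). Of 35 other floral MADS symbols listed, 22 are in the gene table, but 0 of 43789 Zm00001d identifiers are, so none of them was analysed here, and ZmCCT10 was not checked by name. No sequence is printed, because no sequence table was used here. Alternatives were edgeR with the size factors of DESeq2 1.42.0, the DESeq2 test itself, limma 3.58.1 as limma-voom or as limma-trend on log2(TPM + 1) or log2(TPM + 0.1), no filter, a stricter filter (100 counts in 3 libraries), fitting just the libraries compared, a replicate block, an assumed spread of 20% with edgeR's likelihood ratio test, and leaving out each library. Leaving libraries out of the group means was added after seeing the data.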

Additional observations from a re-analysis of the deposited data

Results flagged for a closer look

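By edgeR's quasi-likelihood test of the interaction, the genotype effect differed between stages for each gene, as it did for 86.6% of tested genes. Adjusted p-values in that test were 6.22e-37 for si1, 6.95e-49 for sts1 and 8.71e-08 for zag1. Between S3-4 and S5-6 the log2 genotype effect moved by -1.02 for si1, 1.71 for sts1 and 0.54 for zag1, where 76.9% of tested genes were called. Between S5-6 and S7 it moved by 0.56 for si1 and by 0.34 for zag1, where 60.5% were called. With the assumed spread of 20% (edgeR likelihood ratio test) all these zag1 calls were lost (adjusted p = 0.0646, 0.195 and 0.562). The same held for si1 between S5-6 and S7 (0.274). The zag1 call between S5-6 and S7 was also lost without some single libraries. Groups held 3 libraries, too few to look for single libraries far from the others.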

How the results depend on the processing

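For 30 results of the 3 genes in 10 comparisons, 262 of 297 values under other settings and 515 of 540 without 1 library kept their direction and their side of the threshold; the causes of the changes were not tested. The S3-4 genotype effects and the S3-4 to S5-6 step of si1 and sts1 in ZmCCT(+) were called in the same direction under every alternative run. At S3-4 and in that step, 58.6% and 67.9% of all tested genes were also called with the assumed spread of 20%. With the assumed spread of 20%, calls were lost at S5-6 for si1 (log2 -0.15), sts1 (-0.29) and zag1 (-0.45), at S7 for si1 (0.40) and sts1 (-0.29), in the first control step for sts1 (-0.11), and from S5-6 to S7 in ZmCCT(+) for si1 (0.57) and zag1 (0.33). The same setting ended the calls of zag1 for the interaction (adjusted p = 0.0646) and for the change of the genotype effect from S3-4 to S5-6 (0.54), and of si1 (0.56) and zag1 (0.35) for its change from S5-6 to S7. It left 5471 genes called at S5-6, 3280 at S7, 4022 and 559 in the control steps, 5954 in the later ZmCCT(+) step, 13646 for the interaction, and 12329 and 4260 for the changes of the genotype effect, against 15594, 13449, 13897, 10462, 15716, 21376, 18994 and 14950.

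Limma-trend with TPM pseudocounts of 1 and 0.1 shifted the all-gene median by 0.24 and 0.28 in the first ZmCCT(+) step, by 0.13 and 0.14 at S7, by 0.098 and 0.12 in the first control step, by -0.082 and -0.090 in the second, by -0.092 and -0.12 at S3-4, and by 0.14 and 0.15 for the change of the genotype effect from S3-4 to S5-6. Of the calls in the second control step, the share that rose was 53.1%, and 34.03% and 33.6% by these settings. They turned zag1 at S7 (0.032 and 0.034), sts1 in the first control step (0.0072 with each), si1 in the second (-0.077 with each, called), zag1 in the first ZmCCT(+) step (0.14 and 0.15) and sts1 for the change from S5-6 to S7 (0.062 with each), and called si1 in the first (0.12 with each) and sts1 in the second control step (-0.13 with each). The values of si1 in the control steps, 0.12 and -0.077, are close to these shifts of the median. Values near 0 changed sign elsewhere: si1 in the second control step with DESeq2 size factors (-0.0036), the DESeq2 test (-0.0037) and only the libraries compared (-0.0046), and sts1 for the change from S5-6 to S7 with these (0.0037, 0.0031 and 0.013), no filter (0.0074) and the stricter filter (0.013). The stricter filter lost sts1 in the first control step (-0.071). Without 1 library in turn, zag1 at S7 ran from -0.18 to 0.027, si1 in the control steps from -0.020 to 0.049 and from -0.031 to 0.038, zag1 in the second control step from -0.13 to 0.040, sts1 for the change from S5-6 to S7 from -0.022 to 0.028 and zag1 for it from 0.27 to 0.48.

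DESeq2 size factors moved mean CPM of si1 by over 1 SD in S7 ZmCCT(-), to 410.0, and in S5-6 ZmCCT(+), to 372.8. Dividing counts by gene span, introns included, gave si1 to sts1 ratios of 1.53, 1.66 and 1.74 in controls and 11.1, 1.82 and 2.82 in ZmCCT(+) by stage; the genotype differences of all ratios moved by less than 1 SD. Replicate numbers did not pair the libraries: the correlation of deviations of same-numbered libraries ran from -0.036 to 0.043 over 21 pairs, and 16 of 42 correlated best with their own number. With the replicate block the count of calls at S3-4 was 20040 against 20068, the log2 fold change of sts1 there was -2.00, and no call of the 3 genes changed.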
